A study of Mus musculus with 10 samples.

Results

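The replication-dependent histone genes encode the core histones H2A, H2B, H3 and H4 and the linker histone H1 that package newly replicated DNA. They were taken as every symbol of the expression table that begins with Hist1h, Hist2h, Hist3h or Hist4h, which gave 68 of 23234 symbols. H1 had 6 genes, H2A 18, H2B 19, H3 12 and H4 13. By RefSeq annotation the Hist1 cluster lies on chromosome 13 (54 of the genes), Hist2 on chromosome 3 (10), Hist3 on chromosome 11 (3) and Hist4 on chromosome 6 (1). The genes were chosen by name and not by their levels.

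Levels came from RNA sequencing of 10 libraries of mouse ovarian follicle cells, given as FPKM, a fragment number scaled for transcript length and library size. There were 3 libraries of cumulus cells, the granulosa cells around the oocyte, at an age of 2 months and 3 at 10 months, all of strain C57BL/6. A further 2 libraries held C57BL/6 mural granulosa cells, the layer along the wall of the follicle, at 2 months, and the protocol text given with every library names mural cells of mice primed with eCG, a gonadotropin. Whether the mice that gave cumulus cells at either age were primed is not stated, so priming and cell type cannot be told apart in the mural comparison. Whole cumulus-oocyte complexes were from 3-week-old animals given the same hormone under its other name, PMSG, with 1 library of strain DBA/2 and 1 of BDF1, the hybrid of C57BL/6 and DBA/2. No group carries a transgene or a deletion by the labels. The protocol shared by all groups names a medium with milrinone, an inhibitor that keeps oocytes from resuming meiosis, and a total RNA kit. Whether replicates came from separate or pooled animals is not in the labels. A p-value here therefore covers the spread among libraries only, and that spread may be technical.

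Summed FPKM per library ran from 470377 to 603460, and the sources used here do not give the read depth. All 10 granulosa markers, such as Foxl2 and Fshr, had an FPKM of at least 1 in every library. The 10 mural markers summed to 5902 and 9064 in mural libraries against 260 to 334 in cumulus libraries at 2 months. The 14 oocyte markers summed to 4001 and 3951 in the complexes but also to between 4.53 and 1463 among the 3 cumulus libraries at 2 months. Cumulus replicate 3 at 10 months stood apart, with mural markers at 2029 against 393 and 883 in its replicates and red cell markers at 136 against 23.4 and 22.6.

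Histone mRNAs of this class are made mainly in S phase, when DNA is copied, and are degraded when copying stops. Their primary transcripts are cut just past a conserved hairpin, the histone 3′ stem-loop, so that the mature mRNA ends without a poly(A) tail. The hairpin is bound by the stem-loop binding protein, Slbp, which carries the mRNA through processing, export and translation. In the ovary granulosa cells divide as follicles grow, while replacement histones such as H3.3 are made at any time from ordinary polyadenylated mRNAs. The sources used here do not give whether RNA was selected by poly(A), so the levels below are those of the RNA these libraries captured.

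The hairpin is shown for the genes whose values recur in the results, from GENCODE M21 transcripts, with the 16 bases of stem and loop in capitals and 5 bases to each side.

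Hist1h3a: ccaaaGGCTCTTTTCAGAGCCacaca
Hist1h3c: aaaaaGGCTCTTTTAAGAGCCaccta
Hist1h2bm: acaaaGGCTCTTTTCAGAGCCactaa
Hist2h2aa1: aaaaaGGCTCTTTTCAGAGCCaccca
Hist2h2aa2: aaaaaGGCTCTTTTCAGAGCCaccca
Hist3h2a: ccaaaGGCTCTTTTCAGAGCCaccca
Hist1h1c: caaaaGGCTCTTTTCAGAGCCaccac

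The stem was the same in all 7 and only the loop of Hist1h3c differed within the capitals. The hairpin was found in 46 of 68 annotated member transcripts. It ended within 100 bases of the transcript end in 23 of them, as in Hist2h2aa1 (35 bases) and Hist1h3a (37 bases). In the other 23 the annotated transcript ran on, by 840 bases in Hist1h1c and by 1643 bases in Hist3h2a. The search took a pattern of 16 bases, with 6 paired on each side, that also allows some letters other than those printed. The remaining 22 transcripts, among them Hist2h2be, had no match. Their median annotated length was 396 bases, against 482 for those with the hairpin within 100 bases of the end. Some may be annotated only to a point before the hairpin, so a missing match does not mean that the gene lacks it. Among the last 300 bases of a transcript the hairpin was present in 38.9% of 72 member transcripts and in 0.0172% of 58128 other protein-coding transcripts.

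The promoters are shown for a mural-lower H3 gene, for an H2B gene with a low p against age and for a mural-higher H2A gene, from the RefSeq table on GRCm38.p6, each with 250 bases before and 50 after the annotated start. Capitals mark an octamer (ATTTGCAT), a TATA box (TATAAA) or a CCAAT box (CCAAT) on either strand, and matches of different motifs did not overlap in any member promoter.

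Hist1h3h promoter, chr13:21717378-21717677 (+): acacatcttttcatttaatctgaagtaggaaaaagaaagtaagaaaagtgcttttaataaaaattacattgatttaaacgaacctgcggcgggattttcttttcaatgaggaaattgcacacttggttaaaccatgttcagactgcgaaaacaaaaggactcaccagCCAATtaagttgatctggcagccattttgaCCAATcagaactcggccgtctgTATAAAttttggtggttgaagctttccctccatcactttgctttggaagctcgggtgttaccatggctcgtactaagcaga
Hist1h2bm promoter, chr13:21721794-21722093 (+): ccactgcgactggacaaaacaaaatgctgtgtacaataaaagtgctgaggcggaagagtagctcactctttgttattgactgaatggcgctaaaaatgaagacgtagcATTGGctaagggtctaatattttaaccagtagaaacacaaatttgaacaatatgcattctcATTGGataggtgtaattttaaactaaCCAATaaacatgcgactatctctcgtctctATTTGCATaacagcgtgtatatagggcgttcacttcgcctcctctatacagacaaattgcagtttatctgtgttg
Hist3h2a promoter, chr11:58954435-58954734 (+): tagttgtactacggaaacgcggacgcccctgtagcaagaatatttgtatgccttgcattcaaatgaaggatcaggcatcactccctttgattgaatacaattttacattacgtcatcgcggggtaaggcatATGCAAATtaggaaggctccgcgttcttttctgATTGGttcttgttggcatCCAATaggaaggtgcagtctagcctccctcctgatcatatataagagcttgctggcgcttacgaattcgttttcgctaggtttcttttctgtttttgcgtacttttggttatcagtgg

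A promoter was found for 62 of the 68 genes. The octamer, known as the site of the factor Oct-1 in H2B genes, was present in 7 of 16 H2B promoters (43.8%) and in 7 of 18 H2A promoters (38.9%). None of 6 H1, 10 H3 and 12 H4 promoters held it, and 1.97% of 27025 genes did. The CCAAT box was found in every H1, H2A, H2B and H3 promoter but in 3 of 12 H4 promoters (25%), against 41.1% of all genes. The TATA box was found in 35 of 62 member promoters (56.5%) and in 15.7% of all genes. These matches describe the letters in the window and are not measured binding sites.

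Copies of these genes are close to identical, which limits what a level of a single gene means. Of the 68 genes, 31 shared at least 50% of the 50-base words of their transcript with another member. Hist1h2bq and Hist1h2br shared all of them and were listed at the same FPKM in 10 of 10 libraries. Hist1h4a, Hist1h4b, Hist1h4c, Hist1h4j and Hist1h4k were all listed at 2.01 in cumulus replicate 2 at 2 months and all at 1.76 in mural replicate 1. Equal values above 0 in at least 3 libraries were found for 11 pairs among 7 genes, of which 10 pairs were H4 genes. Reads of such copies may have been divided among them by the authors' counting, so family sums are given beside single genes, and genes with few shared words are marked as such.

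Histone genes of this class were listed at low levels in every library. The means over 10 libraries ran from 0.0740 to 11.3 FPKM, and 66 of 68 genes had a mean under 10. Together they held 0.0142 to 0.0401% of the summed FPKM of a library. By contrast the replacement histone genes H3f3a and H3f3b, which encode H3.3, had 362 and 320 FPKM in cumulus cells at 2 months, and H2afz, which encodes H2A.Z, had 932. FPKM is scaled by annotated length, which may not fit the RNA. Replacement histone mRNAs carry a poly(A) tail and mature member mRNAs do not, and whether RNA was selected by poly(A) is not given. Reads of near-identical members may also have been divided among them. These levels therefore cannot be compared as amounts of mRNA in the cell. There were 49 genes above 0 in all 10 libraries and 19 listed at 0 in at least 1.

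Within families the order of levels over all libraries was led by few genes. For H1 the highest means were those of Hist1h1c, Hist1h1b and Hist1h1e, and for H2A those of Hist1h2ad (5.32), Hist1h2ah (5.29) and Hist1h2ai (5.18). For H2B they were Hist1h2bc (11.3), Hist1h2bj (3.39) and Hist1h2bh (3.30). For H3 they were Hist1h3c (2.92), Hist1h3e (2.00) and Hist1h3d (1.91), and for H4 Hist1h4i (6.27), Hist1h4d (5.43) and Hist1h4b (2.74). Hist1h2bc stood above Hist1h2bj in every library. The neighbours Hist1h2ad, Hist1h2ah and Hist1h2ai did not differ beyond their spread, with 7.82, 6.86 and 5.08, then 9.51, 7.37 and 5.24, then 7.60, 7.85 and 6.49 FPKM in the cumulus libraries at 2 months.

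Of the 68 genes, 50 had a mean of at least 1 FPKM over the 8 C57BL/6 libraries and entered the tests (2 H1, 15 H2A, 13 H2B, 9 H3 and 11 H4). The 18 that did not were 4 H1 genes (Hist1h1a, Hist1h1d, Hist1h1e and Hist1h1t), 3 H2A, 6 H2B, 3 H3 and 2 H4 genes. Their means over 10 libraries were under 1 FPKM in each family, from 0.0740 for an H1 gene to 0.995 for an H2A gene.

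The summed FPKM of each family showed which families differed between mural and cumulus cells at 2 months. The H3 sum was 21.8, 26.7 and 14.6 in the 3 cumulus libraries and 7.66 and 13.2 in the 2 mural libraries. The H1 sum was 7.64, 7.64 and 7.35 in cumulus and 12.2 and 15.9 in mural libraries. Thus H3 was lower and H1 higher in mural cells without overlap, by −0.95 ± 0.43 (SE) and 0.80 ± 0.18 on the log2(sum + 1) scale. The H2A sum was 78.9, 72.3 and 56.3 in cumulus and 44.9 and 74.4 in mural libraries. The H2B sum was 41.8, 27.0 and 50.2 against 41.5 and 59.1, and the H4 sum 53.9, 28.8 and 22.2 against 26.8 and 25.9. These 3 families overlapped between groups, with differences of −0.24 ± 0.39, 0.36 ± 0.36 and −0.30 ± 0.37. The sum over all 68 genes, 204, 163 and 151 against 133 and 189, also overlapped (−0.11 ± 0.28). No p is given for sums, and in such bulk samples fewer cells of a type and less RNA per cell cannot be told apart.

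**Figure D1:**
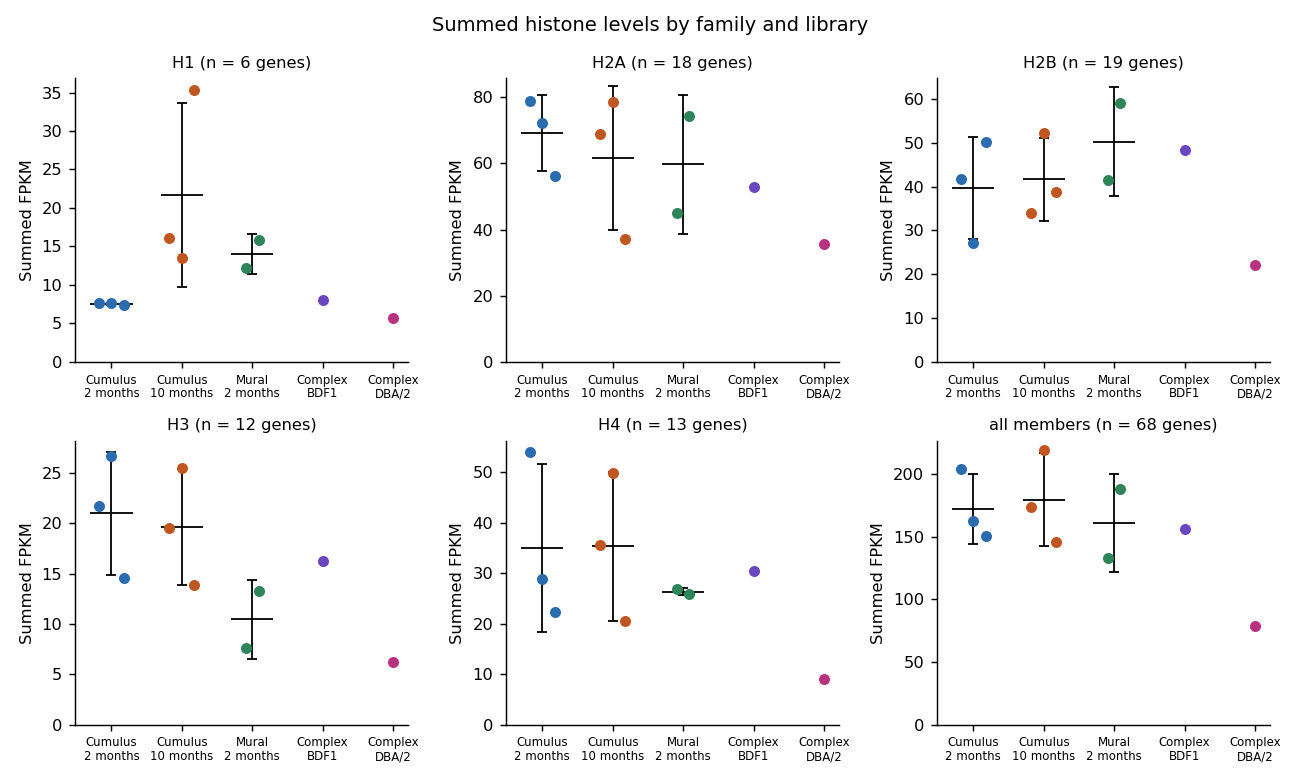
Summed FPKM of each histone family in each library (points), with mean and SD as bars for groups of 2 or 3 libraries. The mural H3 sums of 7.66 and 13.2 lie under the 3 cumulus sums at 2 months, the H1 sums at 10 months lie above those at 2 months, and the DBA/2 complex has the lowest sum in every family.

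The H1 difference rested on Hist1h1c, the gene for the linker histone H1.2. Without this gene the mural H1 difference was −0.17 and the groups overlapped. Hist1h1c itself was listed at 5.45, 6.08 and 5.50 FPKM in cumulus and at 9.75 and 15.02 in mural cells, so that the mural libraries were higher without overlap. Its log2 fold change of 0.98 ± 0.39 did not pass (adjusted p = 0.110, limma). Leaving out cumulus replicate 3 at 10 months, which changes only the shared estimate of spread here, gave an adjusted p of 0.0151. Across 16 alternative settings Hist1h1c was called in 2, this one and library weights. Without cumulus replicate 1 at 2 months its adjusted p was 0.201.

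Across single genes the mural test called 2 of 50 members higher (4%), where 9.69% of 12412 genes were called higher, and 3 lower (6.00%), where 11.2% of genes were called lower. Together 10.0% of members were called against 20.9% of all genes, so in this fit the members' shares were below the background in both directions. For the lower direction this turned under 3 settings, with 24% of members against 16.5% of genes with a replicate block, 26% against 24.5% with library weights and 10% against 8.52% with an oocyte covariate. Under quantile normalization the split was 3 higher (6.00% against 10.5% of genes) and 1 lower (2.00% against 9.67%). With libraries rescaled to 1 sum it was 3 higher (6.00% against 13.8%) and 3 lower (6.00% against 7.71%). Those calls are limma adjusted p-values under 0.05 on log2(FPKM + 1), a scale that understates the change of low genes. At an unadjusted p under 0.05 there were 11 members (22% against 36.8%). There were 32 of 50 members with a log2 fold change below 0 (64.0% against 55.7%). The 2 mural libraries lay below all 3 cumulus libraries for 20 members (40.0% against 32.0%) and above them for 5 (10.0% against 25.6%).

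Both genes that rose in mural cells lie outside the Hist1 cluster. Hist2h2be, which encodes an H2B protein, was listed at 1.31, 1.03 and 1.32 FPKM in cumulus and at 4.51 and 5.73 in mural cells. The mural libraries were high and did not overlap with the cumulus libraries of either age, where the highest was 2.21. The log2 fold change was 1.46 ± 0.26 (adjusted p = 0.010, limma), and its transcript shared 0% of its 50-base words with other members. Hist3h2a, an H2A gene, was listed at 2.29, 2.12 and 1.03 FPKM in cumulus and at 5.09 and 8.07 in mural cells. Both mural libraries were again above every cumulus library, with a log2 fold change of 1.43 ± 0.33 (adjusted p = 0.0216, limma) and 2.00% of words shared. The call of Hist2h2be was lost without mural replicate 2 (adjusted p = 0.0996). That of Hist3h2a was lost without mural replicate 1 (0.0599), mural replicate 2 (0.172) or cumulus replicate 2 at 2 months (0.0506).

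Of the 3 genes that fell, 2 encode H3. Hist1h3a was listed at 1.85, 3.08 and 1.78 FPKM in cumulus and at 0.106 and 0.559 in mural cells. Hist1h3h was listed at 2.93, 1.94 and 1.58 in cumulus and at 0.385 and 0.650 in mural cells. In both genes the mural libraries were below every cumulus library, with log2 fold changes of −1.28 ± 0.34 (adjusted p = 0.0331, limma) and −1.04 ± 0.28 (adjusted p = 0.0391). Hist1h3h shared 93.9% and Hist1h3a 49.5% of words with other members, so the split of reads between these and other H3 genes is uncertain. Both calls were lost without either mural replicate or without cumulus replicate 1 or 2 at 2 months, with adjusted p between 0.0671 and 0.193, and that of Hist1h3a also without replicate 3 (0.0532).

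The third gene that fell, Hist2h2aa2, cannot be read apart from its copy. Hist2h2aa2 was listed at 3.84, 5.77 and 3.35 FPKM in cumulus and at 0.00895 and 0.140 in mural cells (log2 fold change −2.28 ± 0.66, adjusted p = 0.0460, limma). Its copy Hist2h2aa1 was listed at 3.47, 1.21 and 3.39 in cumulus and at 6.15 and 17.9 in mural cells (1.73 ± 0.52, adjusted p = 0.0519). The members of the pair thus lay on opposite sides. Hist2h2aa2 shared 100% of its words with other members, and the printed hairpin with the copy. The sum of the pair was 7.31, 6.98 and 6.73 in cumulus and 6.16 and 18.05 in mural cells, which overlapped (0.54 ± 0.71). The same split was seen elsewhere, with Hist2h2aa2 at 0.00124 in the BDF1 complex and 6.85 in the DBA/2 complex. The call was lost without any 1 of the 3 cumulus replicates at 2 months, either mural replicate or cumulus replicate 1 at 10 months. Across 15 alternative settings Hist2h2be was called in 14, Hist3h2a in 12, Hist1h3h in 10, Hist1h3a in 9 and Hist2h2aa2 in 7.

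**Figure D2:**
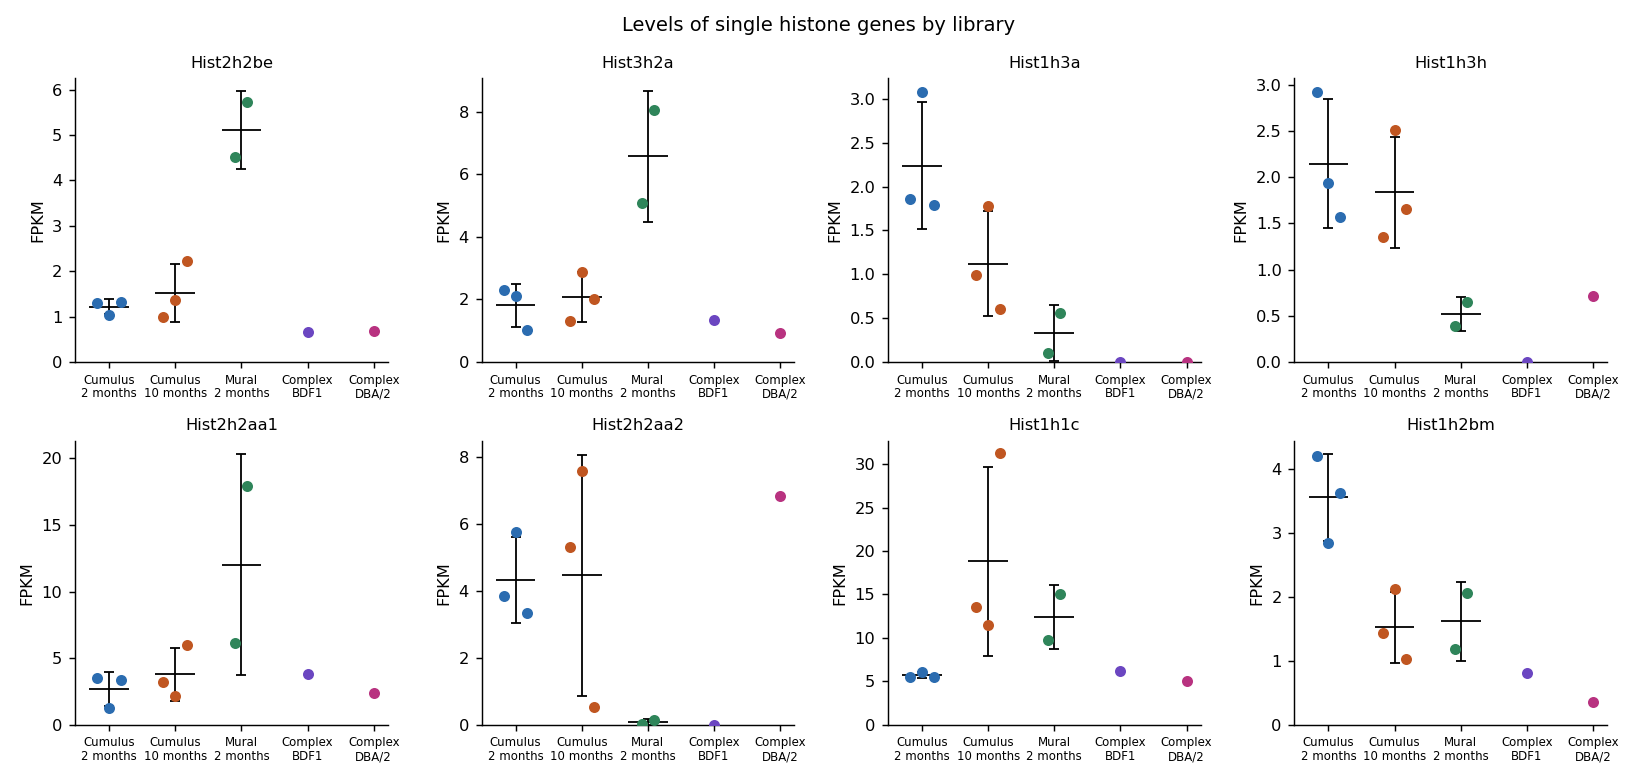
FPKM of 8 histone genes in each library (points), with mean and SD as bars for groups of 2 or 3 libraries. Hist2h2be and Hist3h2a are high in the 2 mural libraries, Hist1h3a and Hist1h3h are low there, and Hist2h2aa1 and Hist2h2aa2 lie on opposite sides.

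H3 had the lowest median of the 5 families in the mural comparison, under each scaling tried. Of 9 tested H3 genes, 8 had a log2 fold change below 0, with a median of −1.01 against −0.08 over all genes. The mural libraries lay below the cumulus libraries without overlap for 7 of the 9, where 32.0% of all genes did so. Hist1h3c, the H3 gene with the highest mean, was listed at 4.36, 7.32 and 3.00 FPKM in cumulus and at 0.126 and 2.04 in mural cells, but did not pass (−1.61 ± 0.48, adjusted p = 0.0513, limma). Hist1h3b, at 2.11, 3.50 and 1.39 against 0.259 and 0.891, did not pass either (adjusted p = 0.0574). The H3 gene with a positive log2 fold change was Hist2h3b, at 1.23, 0.667 and 0.150 in cumulus and 1.51 and 1.98 in mural cells (0.75 ± 0.34, adjusted p = 0.152).

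The H2A genes had a median of −0.57, with 11 of 15 below 0 and 9 below without overlap, beside the same 32.0%. Hist1h2ah was listed at 9.51, 7.37 and 5.24 FPKM in cumulus and at 3.86 and 4.13 in mural cells, and Hist1h2ad at 7.82, 6.86 and 5.08 against 3.92 and 4.13. Both were lower without overlap and neither passed (adjusted p = 0.174 and 0.239, limma). H2B differed in direction, with 9 of 13 genes above 0 and a median of 0.07, which turned to −0.11 under quantile normalization. Hist1h2bc was listed at 6.71, 5.16 and 15.5 in cumulus and 11.98 and 20.03 in mural cells, which overlapped (adjusted p = 0.205). H4 genes had a median of −0.17, and 0 of 11 reached an unadjusted p under 0.05, which 36.8% of all genes did. The leading H4 gene, Hist1h4i, was listed at 9.03, 5.02 and 5.32 in cumulus and at 6.35 and 6.07 in mural cells.

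**Figure D3:**
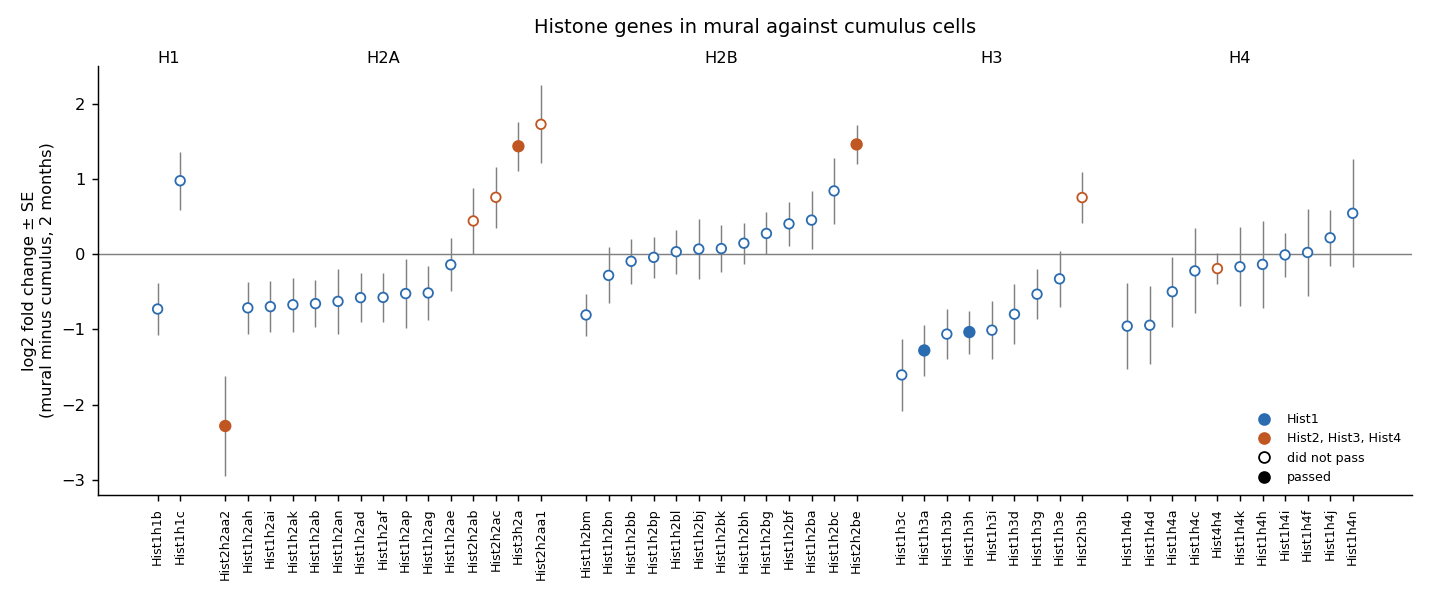
The log2 fold change with SE, mural minus cumulus cells at 2 months, of each of the 50 tested histone genes, grouped by family and coloured by cluster. Filled points passed an adjusted p of 0.05, and 8 of 9 H3 genes lie below 0 while the highest points of H2A and H2B belong to Hist2 and Hist3.

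A split by gene cluster was made after the values were seen and is therefore given without a test. It placed tested genes of different clusters on opposite sides of 0 for H3 and, apart from Hist2h2aa2, for H2A, but not for H2B or H4. In the Hist1 cluster 30 of 42 tested genes were below 0, with a median of −0.41. In Hist2, Hist3 and Hist4 together 6 of 8 were above 0, with a median of 0.75. The 9 Hist1 H3 genes summed to 19.7, 25.8 and 13.9 FPKM in cumulus and to 4.24 and 7.54 in mural cells. The mural sums were lower without overlap, by −1.60 ± 0.43 on the log2(sum + 1) scale, and by between −1.95 and −1.24 with 1 library left out. The 3 Hist2 H3 genes summed to 2.12, 0.922 and 0.647 in cumulus and to 3.42 and 5.70 in mural cells. These were higher without overlap, by 1.34 ± 0.41, so the H3 sums of the 2 clusters lay on opposite sides. Of the 3 Hist2 H3 genes only Hist2h3b entered the test. Hist2h3c1 and Hist2h3c2 had means of 0.672 and 0.616 FPKM over the 10 libraries. The 3 genes shared between 34.8 and 79.7% of words with other members.

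The H2A sums were split likewise, apart from the Hist2h2aa pair, whose sum overlapped. All 10 tested Hist1 H2A genes were below 0. The 13 Hist1 H2A genes summed to 65.1, 61.0 and 45.2 FPKM in cumulus and to 30.6 and 37.6 in mural cells, lower without overlap (−0.72 ± 0.21). The other 3 H2A genes of Hist2 and Hist3 summed to 6.42, 4.35 and 4.32 in cumulus and to 8.10 and 18.8 in mural cells, higher without overlap (1.17 ± 0.58). Of these 3 only Hist3h2a, already described, was higher without overlap by itself. Hist2h2ab, at 1.35, 1.06 and 1.25 against 0.707 and 4.30, overlapped. So did Hist2h2ac, at 2.78, 1.17 and 2.05 against 2.30 and 6.40. The Hist1 H2B genes did not take the side of Hist1 H3 and H2A, with 8 of 12 tested above 0 and sums of 39.8, 25.3 and 47.9 against 36.1 and 52.9, which overlapped (0.26). Of 10 tested Hist1 H4 genes 7 were below 0, as was Hist4h4 (−0.19). Over all 14 genes outside Hist1 the sums were 20.9, 17.6 and 15.97 against 24.9 and 50.1 (0.93 ± 0.50), where mural replicate 2 was far above replicate 1.

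**Figure D4:**
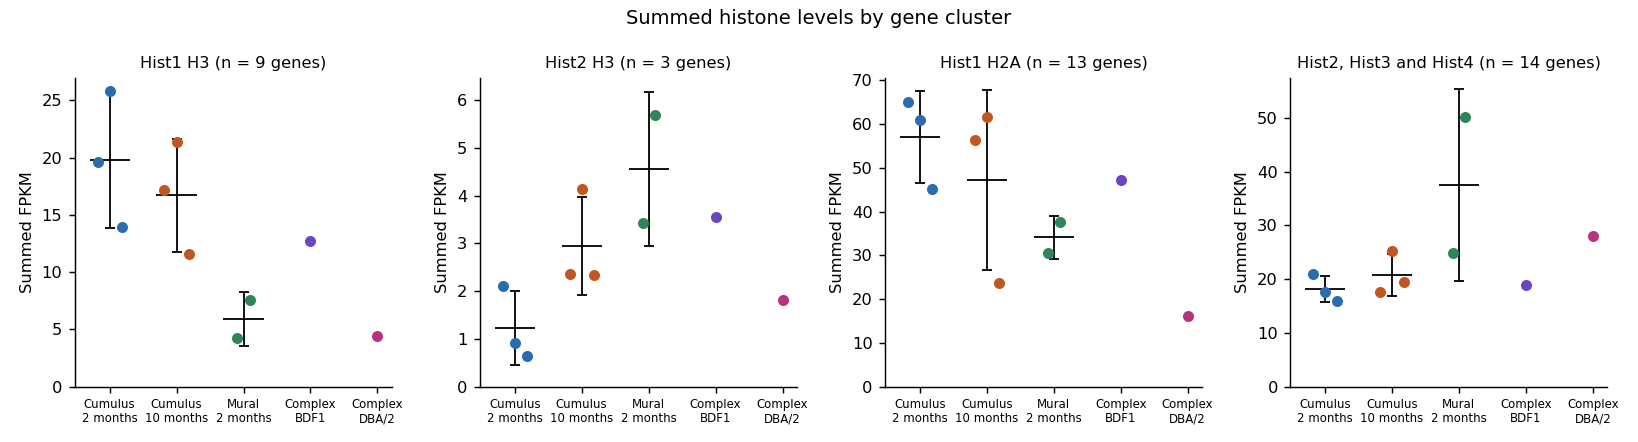
Summed FPKM by gene cluster in each library (points), with mean and SD as bars for groups of 2 or 3 libraries. The Hist1 H3 and H2A sums of the 2 mural libraries lie below the cumulus libraries at 2 months, and the Hist2 H3 sums lie above them.

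Whether the annotated transcript ends at the hairpin did not separate the genes in the same way. The mural median was −0.52 for 21 tested genes with the hairpin within 100 bases of the end, −0.14 for 13 with a longer transcript and −0.43 for 16 without a match.

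Genes that act with these histones were examined in the same test. Their counts stand beside 11.2% of all genes called lower, 9.69% called higher and a median of −0.08 over all genes. Of 25 S phase genes, 22 fell and none rose, with a median of −1.02. Uhrf1, which maintains DNA methylation at replication forks, was at 66.0 ± 5.89 FPKM (SD, n = 3) in cumulus and 22.9 ± 3.23 (n = 2) in mural cells (−1.49 ± 0.17, adjusted p = 0.00343, limma). Mcm6, a subunit of the replicative helicase, was at 108 ± 8.42 against 42.1 ± 0.746 (−1.34 ± 0.17, adjusted p = 0.00486).

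Of 18 histone chaperones, 13 fell and none rose, with a median of −0.64. Nasp, a chaperone of H3 and H4 and linker histones, was at 118 ± 5.23 FPKM in cumulus and 49.2 ± 2.1 in mural cells (−1.24 ± 0.20, adjusted p = 0.00763, limma). Chaf1b, a subunit of the assembly factor that deposits H3 and H4 behind the fork, was at 22.8 ± 2.19 against 9.52 ± 0.297 (−1.17 ± 0.17, adjusted p = 0.00608). Rbbp7, which binds H4 in several complexes, was at 313 ± 18.7 against 136 ± 7.59 (−1.19 ± 0.14, adjusted p = 0.00445). Without mural replicate 2, where 0.227% of all genes were called lower, the calls of Uhrf1, Mcm6, Nasp, Chaf1b and Rbbp7 were lost, with adjusted p between 0.0528 and 0.0799.

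Of 19 tested genes for histone transcription and mRNA processing, 2 fell and none rose, with a median of −0.25. Those 2 were Smn1 (−0.84 ± 0.15, adjusted p = 0.0107, limma), which assembles small ribonucleoproteins, and Cstf2 (−0.51 ± 0.15, adjusted p = 0.0431), a cleavage factor. Across 16 alternative settings Smn1 was called in 14, all but those without a mural replicate, and Cstf2 in 7. The Cstf2 call was lost with rescaled libraries (adjusted p = 0.171), under quantile normalization (0.0880), without any 1 library of the 2-month groups and without cumulus replicate 1 or 2 at 10 months. Slbp was at 81.4, 68.2 and 134 FPKM in cumulus and at 51.9 and 47.8 in mural cells, lower without overlap but not past the threshold (−0.85 ± 0.26, adjusted p = 0.0543). Npat, the coactivator of histone transcription at S phase entry, was at 6.98 ± 1.93 against 5.34 ± 0.262 (adjusted p = 0.351).

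Among 12 replacement histones 1 fell, the centromeric H3 variant Cenpa, at 94.4 ± 17.7 FPKM in cumulus and 38.4 ± 1.17 in mural cells (−1.26 ± 0.28, adjusted p = 0.0189, limma). Its call was lost without cumulus replicate 1 (0.0545) or 2 (0.0618) at 2 months or mural replicate 1 (0.0927) or 2 (0.131). H1f0, a linker histone typical of cells that have stopped dividing, was at 50.5 ± 11.5 against 73.6 ± 13.1 and did not pass (0.55 ± 0.21, adjusted p = 0.105). The H3.3 gene H3f3b was at 320 ± 10.5 against 281 ± 42.6 (adjusted p = 0.427). Markers of other cell types moved with these groups. Theca and stroma markers summed to 37.8 to 42.0 in cumulus and to 311 and 438 in mural libraries, red cell markers to 13.8 to 21.5 and to 141 and 82.8, and immune markers to 8.32 to 12.48 and to 30.8 and 61.6. The red cell sums in cumulus cells were mostly Alas2 (13.3 to 16.1), which was lower in mural cells, at 2.36 and 1.17. The higher mural sums lay in haemoglobin genes such as Hba-a1, at 61.2 and 46.3 against 0 to 2.29 in cumulus. The part of these markers in the histone results was not tested.

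**Figure D5:**
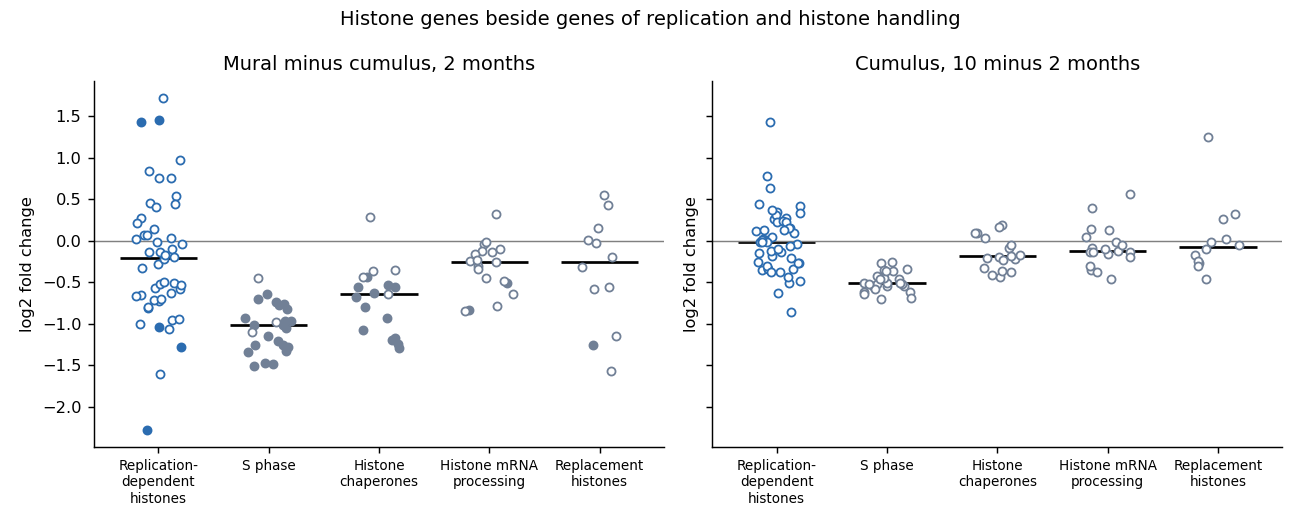
The log2 fold changes of the 50 tested histone genes beside S phase genes, chaperones, processing genes and replacement histones, mural minus cumulus (left) and cumulus at 10 minus 2 months (right). Points are genes, lines are medians and filled points passed an adjusted p of 0.05. S phase genes centre on −1.02 on the left, where the histone genes spread around −0.21.

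With age, no member passed the test in cumulus cells, where 0% of 12412 genes passed in either direction by limma. At an unadjusted p under 0.05 there were 2 members (4%) against 13.9% of all genes. With 3 libraries against 3, an exact permutation test of a single gene cannot go below p = 0.10. The log2 fold change was below 0 for 26 of 50 members (52.0% against 53.4% of all genes), and its median was −0.01 against −0.02. Under quantile normalization it was below 0 for 35 (70% against 57.6%), with a median of −0.20 against −0.056. The 10-month libraries lay above all 2-month libraries for 1 tested member (2.00% against 8.93%) and below for 3 (6.00% against 8.88%). The sum of all 68 genes was 204, 163 and 151 FPKM at 2 months and 174, 220 and 146 at 10 months, which overlapped (0.05 ± 0.21).

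The member with the lowest p against age was Hist1h1c. It was listed at 5.45, 6.08 and 5.50 FPKM at 2 months and at 13.5, 11.5 and 31.3 at 10 months, so every library of the older mice was higher than every library of the younger. The log2 fold change was 1.44 ± 0.35 (adjusted p = 0.213, limma). Without replicate 3 at 10 months, the library with the highest value and with raised mural and red cell markers, it was 1.02 (adjusted p = 0.293). Only 8.54% of its transcript words were shared with other members. The mural libraries, at 9.75 and 15.02, were also above the 2-month cumulus libraries.

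The H1 genes Hist1h1d and Hist1h1e were too low to enter the test. Hist1h1d was listed at 0.213, 0.137 and 0.0766 FPKM at 2 months and at 0.531, 0.295 and 0.521 at 10 months. Hist1h1e was listed at 0.286, 0.160 and 0.169 at 2 months and at 0.591, 0.474 and 0.782 at 10 months. Both were higher at 10 months without overlap, at under 1 FPKM, while Hist1h1b, at 1.69, 0.885 and 1.02 against 1.45, 1.17 and 2.36, overlapped. The H1 sum was 7.64, 7.64 and 7.35 at 2 months and 16.1, 13.5 and 35.3 at 10 months, higher without overlap (1.28 ± 0.41). Without Hist1h1c the H1 sums overlapped (0.39). The 12 immune markers summed to 8.32 to 12.48 FPKM at 2 months and to 41.1, 70.5 and 100.1 at 10 months. Ptprc, the pan-leukocyte marker, was at 0 to 0.126 at 2 months and at 0.144 to 0.548 at 10 months. Cd74 was at 0.406 to 1.78 and at 6.90 to 30.9, while Cd68 overlapped (1.47 to 3.86 and 1.69 to 9.04). The part of these markers in the H1 values was not tested.

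Hist1h2bm, an H2B gene with an octamer and a CCAAT box in the printed promoter, was the other member with a low p. It was listed at 4.21, 2.84 and 3.62 FPKM at 2 months and at 1.43, 2.11 and 1.02 at 10 months, lower without overlap. The log2 fold change of −0.86 ± 0.25 did not pass (adjusted p = 0.240, limma). It was also low in mural cells, at 1.18 and 2.05 (−0.81 ± 0.27, adjusted p = 0.0720), and lowest in the complexes, at 0.801 and 0.354. The mural and age comparisons share the 2-month cumulus libraries, so the values for both are not independent. The other members below without overlap were Hist1h3a, at 1.85, 3.08 and 1.78 against 0.986, 1.78 and 0.598, where the nearest libraries all but touch, and Hist4h4, at 1.67, 2.19 and 2.02 against 1.19, 1.20 and 1.44.

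The 3 Hist2 H3 genes were another sum that did not overlap with age, at 2.12, 0.922 and 0.647 FPKM at 2 months and 2.35, 4.13 and 2.34 at 10 months (0.85 ± 0.35). Of these 3 genes only Hist2h3c2, at under 1 FPKM in each of these libraries, was higher without overlap by itself. The H2A, H2B, H3 and H4 sums overlapped between ages, with differences of −0.22, 0.09, −0.09 and 0.02. Of the 25 S phase genes none passed. All 25 were below 0 at 10 months, against 53.4% of all genes, with a median of −0.51 against −0.02, and 13 were lower without overlap, against 8.88%. Markers of other cells moved with age too. Mural markers summed to 260 to 334 FPKM at 2 months and to 393, 883 and 2029 at 10 months, theca and stroma markers to 37.8 to 42.0 and to 71.0, 118 and 145, and surface epithelium markers to 27.5 to 35.4 and to 60.1, 58.3 and 126. Krt8 made up most of the surface epithelium sums at 2 months (22.4 to 30.8) and of that in replicate 1 at 10 months (50.1). In that replicate Krt19, Upk3b and Msln were at 0 and Krt7 at 0.164, under its 2-month values. Krt18 (7.58) and Epcam (1.10) were above theirs there. The part of these markers in the histone and S phase values was not tested. Slbp was at 85.6 ± 5.29 FPKM at 10 months against 94.5 ± 34.6 at 2 months (adjusted p = 0.921, limma).

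The complexes, which hold an oocyte with its cumulus cells, have 1 library per strain, so values are given without a test. They differ from the cumulus libraries in strain, age, oocyte content and perhaps hormone priming, which is stated for the complexes and not for the cumulus cells, and these cannot be told apart. The DBA/2 complex had the lowest sum of all 10 libraries in every family. Its sums were 5.73 for H1, 35.6 for H2A, 22.2 for H2B, 6.25 for H3 and 9.11 for H4, and 78.8 FPKM over all 68 genes. The BDF1 complex had 8.08, 52.9, 48.3, 16.3 and 30.3, and 156 over all genes. It thus lay within the range of the 8 C57BL/6 libraries in every family. Relative to the mean of the 2-month cumulus libraries the DBA/2 total differed by −1.11 on the log2(sum + 1) scale and the BDF1 total by −0.13. For H4 the DBA/2 difference was −1.73 and for H3 −1.56.

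Gene by gene, 49 members had a mean of at least 1 FPKM over the 10 libraries. The DBA/2 complex was lower than the 2-month cumulus mean by at least 1 on the log2(FPKM + 1) scale for 23 of them (46.9%), against 5.50% of 12713 genes. The BDF1 complex was lower by that much for 11 (22.4%), against 3.37%. Higher values of that size were seen for 1 member in DBA/2 (2.04% against 14.2%) and 2 in BDF1 (4.08% against 12.4%). The DBA/2 complex lay below all 8 C57BL/6 libraries for 34 members (69.4% against 16.0%), of which 10 were H2A, 10 H2B, 9 H4, 4 H3 and 1 H1. The BDF1 complex did so for 16 members (32.7% against 13.2%). Values above all 8 were found for 2 members in DBA/2 (4.08% against 32.3%) and for 8 in BDF1 (16.3% against 32.6%). Near-identical copies are counted singly here and in the comparison of the complexes below. In DBA/2 Hist1h2bf, Hist1h2bk, Hist1h2bl and Hist1h2bm were all listed at 0.354, and Hist1h2ad, Hist1h2af and Hist1h2ai at 1.99. The shares of members are therefore not shares of separate observations.

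Set directly against BDF1, the DBA/2 complex was lower for 39 of 49 members (79.6% against 50.3%) and lower by at least 1 for 13 (26.5% against 3.38%). Hist1h4d was listed at 10.8 FPKM in BDF1 and at 0 in DBA/2, and Hist1h4i at 7.19 and 0.272. Hist1h3e was listed at 5.79 in BDF1 and at 0 in DBA/2. Hist1h3a was listed at 0 in both. Higher in DBA/2 by at least 1 were 3 members (6.12% against 2.78%), among them the copy Hist2h2aa2 already described and Hist2h2ac, at 0.268 in BDF1 and 6.82 in DBA/2. Of all 68 genes, 13 were listed at 0 in DBA/2 and 9 in BDF1. The reference build is of strain C57BL/6, and how reads that differ from it or fit several copies were placed was not examined here.

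Slbp and the oocyte genes were at like levels in both complexes. Slbp was at 209 FPKM in BDF1 and 204 in DBA/2, both above the highest cumulus value of 134. Oocyte markers summed to 4001 and 3951, and the oocyte linker histone H1foo was at 535 and 603. The cumulus markers summed to 1118 in BDF1 and 515 in DBA/2, against 914 to 1136 in cumulus libraries at 2 months. Their part in the histone values was not tested. H3f3a was at 483 in BDF1 and 553 in DBA/2.

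The members known as germ-line variants were listed at low levels. Hist1h2aa, an H2A of the testis, was at 8.85 FPKM in the BDF1 complex, at 0.928 in cumulus replicate 3 at 2 months and at under 0.1 or 0 in the remaining 8 libraries, the DBA/2 complex among those at 0. Hist1h2ba, the testis H2B, was above 0 in every library, from 0.770 to 3.19. Hist1h1t, the testis H1, was listed above 0 only in the mural libraries, at 0.473 and 0.267. The members outside Hist1 summed to 18.9 in BDF1 and 28.03 in DBA/2 over the 14 genes, against 15.97 to 20.9 in cumulus cells at 2 months. The low DBA/2 total thus lay in the Hist1 genes, with the 13 Hist1 H2A genes at 16.2 and the 9 Hist1 H3 genes at 4.43, against 47.3 and 12.7 in BDF1.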

How the data were processed

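The authors deposited 1 table of FPKM for the 10 libraries. The submitters' processing notes name mm9 as the genome build and list TopHat2 2.1.0 and Cufflinks 2.1.0. The sources used here do not give the annotation, strandedness, read length or depth, so counting intervals are left out. A repeated header line was dropped.

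A linear model of log2(FPKM + 1) with a mean per group was fitted to the 8 C57BL/6 libraries in limma 3.58.1 (R 4.3.3; eBayes with trend; 5 residual degrees of freedom). It took the 12412 genes whose FPKM averaged 1 or more in them. The contrasts were mural minus cumulus at 2 months and cumulus at 10 minus 2 months, two-sided, with Benjamini-Hochberg adjustment over all genes tested and a threshold of 0.05. Family sums are sums of FPKM, compared as log2(sum + 1) with an SE from both groups' SDs and no test. The fit was tested on simulated data. Members were matched to symbols of GENCODE M21 transcripts and RefSeq tables, which are of another build than the values, so no coordinate of a level is given.

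Named in full were the 3 members with the highest mean per family, up to 6 that passed per contrast and direction with the largest change, 3 germ-line variants, up to 4 genes with the smallest p from each related list, and Slbp, Npat, H1f0 and H3f3b. Further members named, and the cluster split, were picked with their values in view. The members and lists were chosen with earlier results of these data known. Alternatives changed the pseudocount, filter, scaling, library weights, an oocyte covariate, a replicate block and each library in turn.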

Additional observations from a re-analysis of the deposited data

How the results depend on the processing

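The count of members called higher in mural cells (2) was 8 with library weights (16% of members against 19.2% of genes) and 4 without a filter (5.88% against 7.94%). It was 4 with a replicate block (8% against 10.6%). With a mean FPKM of at least 5, where 11 members were tested, it was 0 (0% against 8.66%). With 1 cumulus library left out it ran from 1 (2.00% against 5.14%) to 4 (8.16% against 11.8%). The count called lower (3) was 13 with library weights (26% against 24.5%) and 12 with a replicate block (24% against 16.5%). It was 5 with an oocyte covariate (10% against 8.52%) and 1 under quantile normalization (2% against 9.67%). With a mean FPKM of at least 5 it was 0 (0% against 14.6%). Without cumulus replicate 1 or 2 at 2 months it was also 0 (0% against 6.64% and 4.52%). Without cumulus replicate 3 at 10 months it was 5 (10.2% against 14.6%). Leaving out a mural library leaves 1 in that group, so those counts are left out here. Whether the replicate numbers pair the samples is not in the labels. Deviations from the group means correlated by 0.006, 0.118 and 0.147 in same-numbered cumulus libraries of the 2 ages. In those of different number they correlated by between −0.138 and 0.040. For cumulus and mural libraries at 2 months the values were 0.032 and 0.214 with the same number and between −0.214 and 0.170 with different numbers. Deviations within a group sum to 0, so these values are tied to each other and cannot settle the pairing. The block counts are therefore not read as a paired result. No member was called with age under any of the alternatives.

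Among family sums, the mural H1 difference (0.80) was 1.00 with rescaled libraries, −0.17 without its leading member and 0.16 as a mean of members' log2 values. The mural H3 difference (−0.95) was −0.48 as such a mean. The age H1 difference (1.28) was 0.39 without its leading member and 0.37 as a mean. In complexes, the BDF1 H1 difference (0.09) was −0.032 with rescaled libraries and 0.023 without the leading member, the DBA/2 H1 difference (−0.34) was −0.39 with a pseudocount of 0.1, −0.42 with rescaled libraries and −0.73 without the leading member, and the DBA/2 H2B difference (−0.77) was −1.25 without it. Rescaling moved the mural median of all genes from −0.08 to 0.11 and that of the members from −0.21 to −0.071, and the mural difference of the sum over all members from −0.11 to 0.11. With 1 library left out, mural H1 ran from 0.63 to 0.98 and mural H3 from −1.31 to −0.59. The sources of these shifts were not tested. Low FPKM and unknown depth limit every single gene here.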
